A study of Mus musculus with 10 samples.

Results

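Matrix metalloproteinases (MMPs), the related ADAMTS proteases with their protease-free relatives the ADAMTSL proteins, and the tissue inhibitors of metalloproteinases (TIMPs) were followed in gastrocnemius muscle with and without desmin. Members were all genes annotated as protein-coding whose symbol starts with Mmp, Timp, Adamts or Adamtsl followed by a number. This gave 50 of the 54232 genes in the table, namely 22 MMPs, 19 ADAMTS, 5 ADAMTSL and 4 TIMP genes. RNA of the gastrocnemius, a calf muscle, was sequenced from 5 homozygous desmin knock-out mice (Des -/-) and 5 wild-type mice (Des wt/wt) of the strain B6J.129Sv-Destm1Cba/Cscl, which the study's methods describe as littermates of 3 months of age. The labels name no treatment, and the knock-out allele is carried by every cell of the mouse, not by muscle fibers alone. The methods name the gastrocnemius alone, whereas a figure legend and the discussion of the study name the plantaris muscle as well. According to the methods the RNA of 5 muscles per genotype was pooled, whereas the table holds a separate column per mouse, which was used as the replicate. Expression was given as regularized log (rlog) values on a log2 scale. These correct for library size and shrink each value to the average of its gene, which makes differences smaller than on the scale of counts, above all for weakly expressed genes. SE stands for standard error. Sequencing depth is unknown from these values.

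MMPs are zinc-dependent endopeptidases that cleave collagens, laminins, fibronectin and other matrix proteins outside the cell or at its surface. ADAMTS proteases are secreted and cut proteoglycans, procollagens or von Willebrand factor, depending on the member. TIMPs bind the active site of these enzymes and block it, and in muscle the balance of both is known to change when fibers are damaged and the matrix around them is rebuilt.

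Des itself, which encodes desmin, ranged from 11.76 to 11.89 in the knock-out mice and from 16.10 to 17.74 in the wild-type mice, so each library carried the level of its label. Wild-type mouse 3 stood apart from the other mice. It correlated with the rest of its genotype at 0.982 on average over all tested genes, compared with 0.989 to 0.991 for the other 4, and its unlogged values summed to 1.48 times the median mouse. The muscle fiber markers Acta1, Ckm, Myh1, Myh2, Myh4, Tnnt3, Actn3 and Pvalb had a median level of 19.24 against 8.54 for all tested genes, as the label of the tissue says.

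Of the 50 members, 32 reached log2(10) as the mean of all 10 mice and were tested together with all other genes above this limit, 14289 in total (limma, Benjamini-Hochberg adjustment over all of them). The remaining 18 lay below the limit, of which Adamts13, Mmp1b and Mmp20 had the value 0 in all mice. At an adjusted p under 0.05, 4 members had higher and 2 had lower expression in muscle without desmin. This is 18.8% of the tested members, compared with 13.7% of all tested genes (7.70% higher and 5.99% lower). The median log2 difference of the tested members was 0.09 (median of all tested genes, -0.003), with 21 means higher and 11 lower in knock-out muscle. The share of members called was thus near that of all tested genes. Only Timp1 separated the genotypes without overlap, which 14.4% of all tested genes did.

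**Figure D1:**
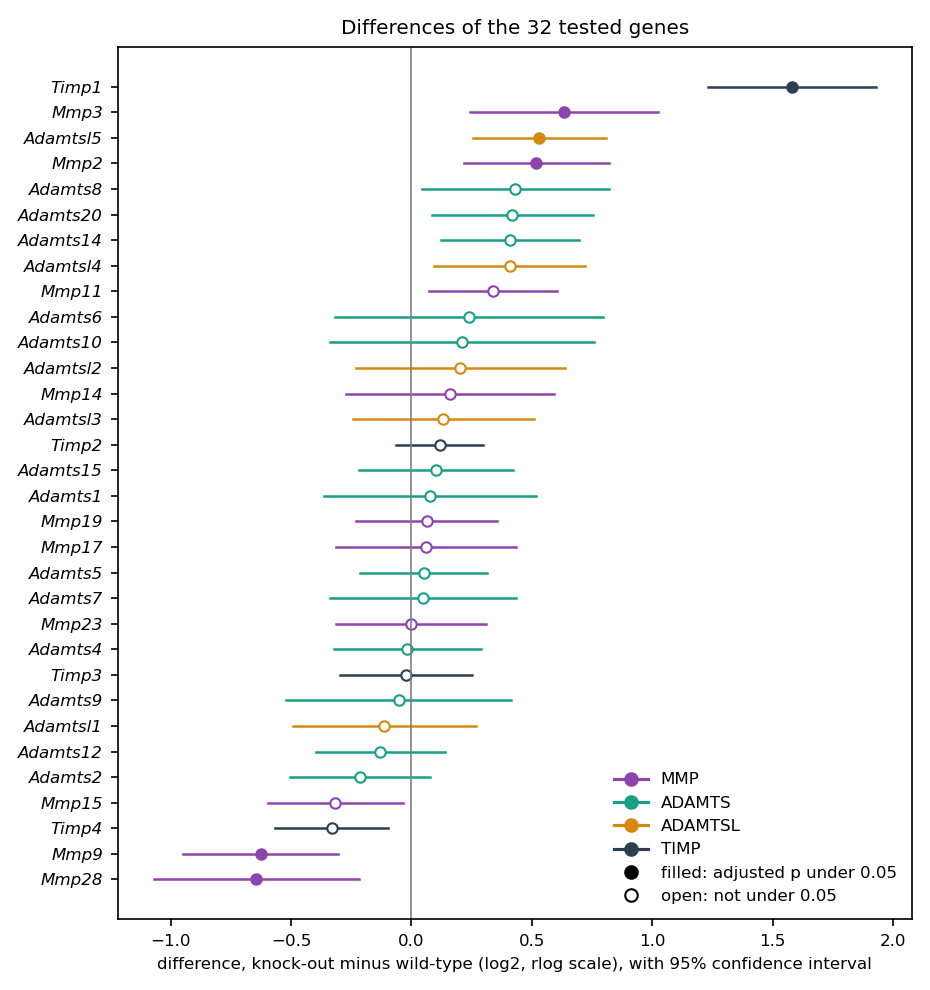
Log2 difference between desmin knock-out and wild-type muscle (x axis, rlog scale) with its 95% confidence interval from limma for the 32 tested genes (y axis), coloured by family, with filled points for an adjusted p under 0.05. Timp1 lies at 1.58, well to the right of Mmp3 at 0.63, while Mmp28 and Mmp9 lie at the lower end at -0.64 and -0.63.

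Of the 4 inhibitor genes, Timp1 rose, and Timp2, Timp3 and Timp4 did not pass the test (median log2 difference of the 4 genes, 0.05). Timp1 (ENSMUSG00000001131, chromosome X, 20870166 to 20874735, GRCm38 as for all genes) encodes a secreted inhibitor that is induced by cytokines and growth factors in many tissues. Its values were 7.66, 7.78, 7.34, 7.61 and 7.57 in knock-out mice 1 to 5. In wild-type mice 1 to 5 they were 5.72, 6.18, 6.48, 5.58 and 6.11. All 5 knock-out values thus lay above the highest wild-type value, and the knock-out mice were also closer to each other. Mean Timp1 was 7.59 ± 0.16 (SD, n = 5) in knock-out against 6.01 ± 0.36 (SD, n = 5) in wild-type mice. No member differed more in either direction than Timp1 with 1.58 on the log2 scale (SE 0.16, limma adjusted p = 2.41e-05). It stayed between 1.47 and 1.70 with each mouse left out in turn, and it was 1.70 without wild-type mouse 3, whose value was the highest of its genotype.

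Timp1 lies inside an intron of Syn1, the gene of synapsin I, on the opposite strand, and the annotated exons of both genes share no base. Timp3 lies inside Syn3 in the same way and shares 1733 bases (21.3%) of its exons with it, and Timp4 lies inside Syn2 and shares 90 bases (1.5%). Libraries were made with a stranded kit, but the strand setting used for counting is not given in the sources used here, and without it reads of shared bases cannot be assigned to either gene. For Timp1, as the member with the largest difference, the 250 bases before the start site are shown 5′ to 3′ (chrX:20869916-20870165, forward strand, GRCm38.p6, RefSeq). Capitals mark the only match to GGGCGG, the core of a GC box bound by Sp1, which is found here on the opposite strand. The window searched, from 250 bases before to 50 after the start, held no TATAAA and no exact match to TGANTCA, the consensus recognition sequence of AP-1. Sequences close to this consensus were not searched. The 50 bases after the start, which are not printed, hold such a sequence, TGAGTAA, so the lack of a match does not show that an AP-1 site is absent.
Timp1: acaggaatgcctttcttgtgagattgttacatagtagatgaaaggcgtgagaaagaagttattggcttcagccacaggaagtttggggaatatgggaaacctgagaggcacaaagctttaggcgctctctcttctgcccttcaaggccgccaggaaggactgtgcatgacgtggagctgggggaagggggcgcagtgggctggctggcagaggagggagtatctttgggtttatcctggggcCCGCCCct

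Timp4, an inhibitor known for its expression in heart, brain and skeletal muscle, went in the other direction without passing the test. Its values were 10.33, 10.14, 10.09, 10.10 and 10.29 in knock-out mice and 10.18, 10.50, 10.59, 10.77 and 10.55 in wild-type mice. Wild-type mouse 1 was as low as the knock-out mice, while knock-out mice 2, 3 and 4 lay below every wild-type mouse. Timp4 differed by -0.33 (SE 0.11, limma adjusted p = 0.0622). It was -0.42 without wild-type mouse 1 (adjusted p = 0.0142) and -0.37 after median centring of the samples (adjusted p = 0.0465).

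Timp2 and Timp3 were the most abundant members per exon length. Timp2, which also serves in the activation of pro-MMP2 at the cell surface, had 11.41, 11.60, 11.44, 11.50 and 11.40 in knock-out mice and 11.36, 11.20, 11.42, 11.30 and 11.47 in wild-type mice. The ranges overlapped, and the log2 difference was 0.12 (95% confidence interval -0.06 to 0.30, limma adjusted p = 0.395). Timp3, which binds to the matrix and also inhibits ADAMTS enzymes, had 12.02, 11.75, 11.41, 11.85 and 11.71 in knock-out and 11.81, 11.78, 11.55, 11.61 and 12.10 in wild-type mice. Both the lowest of all values and the second highest belonged to knock-out mice, and the interval of the log2 difference was -0.30 to 0.25.

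Levels of different genes were compared per exon length, as rlog value minus log2 of the exon length in kb. On this scale the highest means over all mice were those of Timp2 (9.45), Timp3 (8.73), Adamtsl5 (8.35), Mmp2 (8.35), Adamts1 (8.05) and Timp4 (7.79), and the lowest tested ones were Mmp17 (1.18) and Adamts4 (1.15). Adamtsl5 and Mmp2 differed by less than their spread. Timp1 was the lowest of the 4 inhibitors in wild-type muscle. In wild-type muscle its level per exon length was 6.18 and that of Timp4 7.96, whereas in knock-out muscle it was 7.76 against 7.63, which differ by less than the SD of Timp1 (0.16). Within each mouse, the rlog value of Timp1 minus that of Timp4 ranged from -2.74 to -2.36 in knock-out and from -5.19 to -4.11 in wild-type mice, without overlap. These differences between members are given as a description and were not tested.

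**Figure D2:**
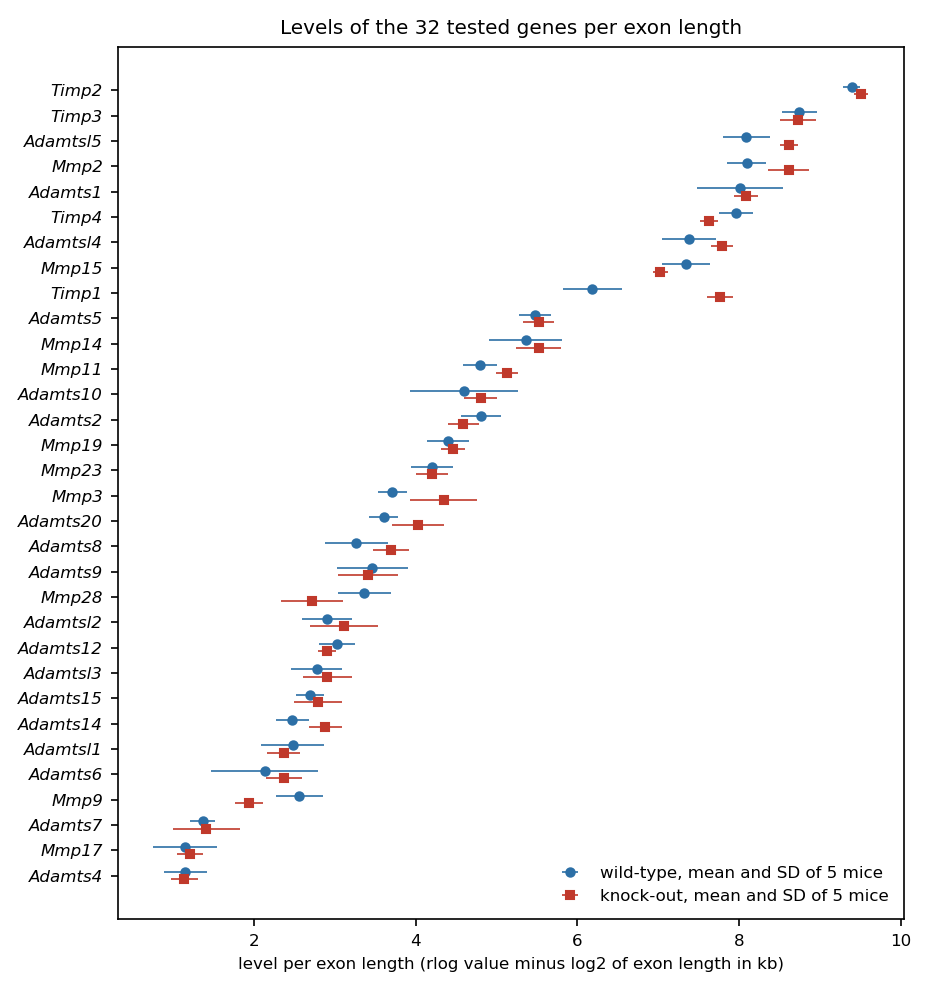
Level per exon length of the 32 tested genes (x axis, rlog value minus log2 of exon length in kb), as mean and SD of the 5 wild-type mice (circles) and the 5 desmin knock-out mice (squares), ordered by the mean of all mice. Timp1 moves from 6.18 to 7.76, to the level of Timp4, while most other genes have overlapping error bars.

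The 2 gelatinases, Mmp2 and Mmp9, moved in opposite directions. Both enzymes degrade denatured collagen and the collagen IV of basement membranes, but Mmp2 is made mainly by mesenchymal cells and Mmp9 mainly by leukocytes and other stimulated cells. Mmp2 (ENSMUSG00000031740, chromosome 8, 92827291 to 92853420) had 10.68, 10.52, 10.06, 10.39 and 10.16 in knock-out mice and 9.87, 9.62, 9.81, 9.69 and 10.23 in wild-type mice. Knock-out mice 1, 2 and 4 lay above all wild-type mice, whereas knock-out mice 3 and 5 lay below wild-type mouse 5. With means of 10.36 ± 0.25 (SD, n = 5) in knock-out against 9.84 ± 0.24 (SD, n = 5) in wild-type mice, Mmp2 was higher by 0.52 on the log2 scale (SE 0.14, limma adjusted p = 0.0248). The call was lost without knock-out mouse 1 (adjusted p = 0.069), 2 (0.0713) or 4 (0.0595), or without wild-type mouse 2 (0.0617) or 4 (0.057), at log2 differences between 0.44 and 0.51.

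Mmp9 (ENSMUSG00000017737, chromosome 2, 164940780 to 164955850) was weakly expressed and was lower in knock-out muscle. The values were 3.89, 3.99, 3.67, 3.57 and 3.69 in knock-out mice and 4.44, 3.95, 4.42, 4.37 and 4.77 in wild-type mice. Wild-type mouse 2 lay among the knock-out mice, and the other 4 wild-type mice were above every knock-out mouse. With means of 3.76 ± 0.17 (SD, n = 5) and 4.39 ± 0.29 (SD, n = 5), Mmp9 differed by -0.63 (SE 0.15, limma adjusted p = 0.0127), and it kept an adjusted p under 0.05 with each mouse left out in turn (-0.74 to -0.53). Of 6 neutrophil markers, S100a8 had a log2 difference of 0.02 (limma adjusted p = 0.959), Ly6g and Mpo lay below the expression limit, and Elane and Camp were at 0 in all mice. S100a9 had 2.66 to 3.02 in knock-out and 3.45 to 4.33 in wild-type mice and reached the limit only through the wild-type mice, so that no test is given. Mmp8, the collagenase of neutrophils, lay below the limit with 2.01 to 2.43 in knock-out and 1.77 to 1.88 in wild-type mice. The summed level of the 6 markers, taken as log2 of the sum of unlogged values, ranged from 4.32 to 4.79 in knock-out and from 4.56 to 5.27 in wild-type mice. This sum includes S100a9 and is therefore no separate measure of these cells. The 7 macrophage markers were all tested and none passed in limma, also not at an unadjusted p under 0.05 (summed level 10.84 to 11.30 in knock-out and 10.50 to 11.17 in wild-type mice). The part of leukocytes in the result for Mmp9 was not tested. In whole muscle, fewer cells of a type and less RNA per cell cannot be told apart.

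**Figure D3:**
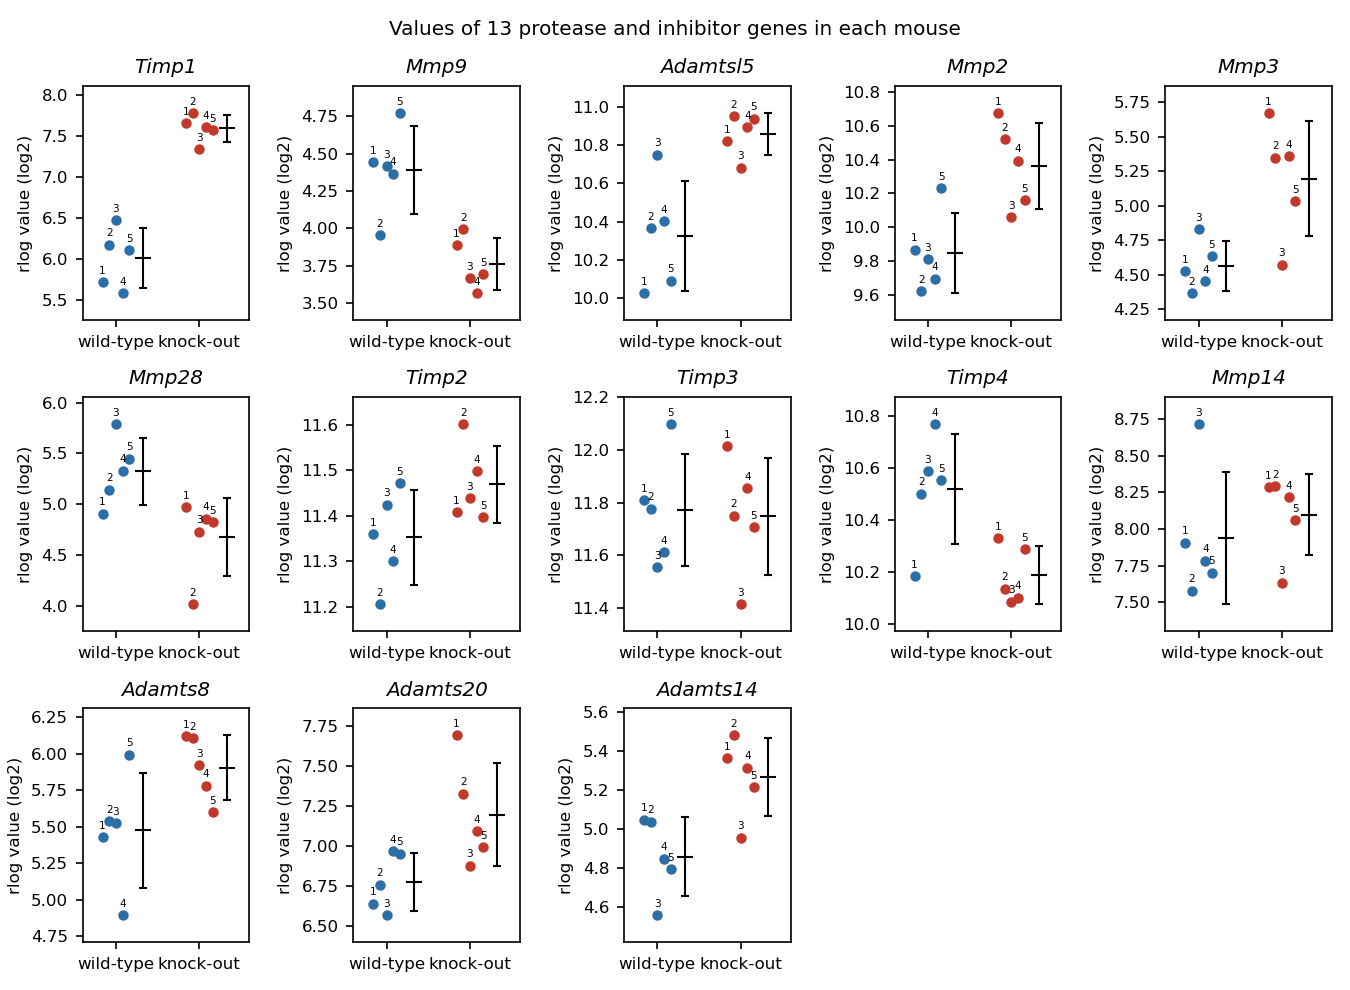
Rlog values (y axis, log2 scale, own axis for each gene) of 13 members in the 5 wild-type and 5 desmin knock-out mice, numbered by mouse, with mean and SD beside the points. Timp1 is the only gene of the 13 without overlap of the genotypes, and wild-type mouse 3 lies far above the others for Mmp14 at 8.72.

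Mmp14, the membrane-type enzyme that activates pro-MMP2, did not pass the test. It had 8.29, 8.29, 7.63, 8.22 and 8.06 in knock-out mice and 7.91, 7.58, 8.72, 7.78 and 7.70 in wild-type mice, and wild-type mouse 3 was the highest and knock-out mouse 3 the second lowest of all mice. Mmp14 differed by 0.16 (95% confidence interval -0.27 to 0.59, limma adjusted p = 0.642). Without wild-type mouse 3 it was 0.35 (adjusted p = 0.0943), and with sample weights, which give less weight to mice that deviate from their group, 0.39 (adjusted p = 0.0204). With sample weights 29.5% of all tested genes passed, compared with 13.7% in the main fit. Mmp14 passed in only 1 of the 17 alternative fits, this one. Of the 6 membrane-type genes, 3 were tested and none passed in limma (1 at an unadjusted p under 0.05, as were 3948 of all 14289 tested genes). Mmp15 had the lowest log2 difference among these, -0.32 (limma adjusted p = 0.132), and Mmp17 had 0.06. Without wild-type mouse 3 these were -0.20 and 0.19, Mmp15 had -0.07 with sample weights, and Mmp17 turned to -0.07 without wild-type mouse 4. Mmp16, Mmp24 and Mmp25 lay below the limit.

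On chromosome 9, 9 members lie within 427.1 kb (7272514 to 7699585), namely the collagenases Mmp13, Mmp1b and Mmp8, the stromelysins Mmp3 and Mmp10, and Mmp12, Mmp27, Mmp20 and Mmp7. Some of these secreted enzymes, such as Mmp3, Mmp10 and Mmp13, are known to be nearly silent in resting tissue. They are switched on by injury and cytokines, in part through AP-1. Mmp3 alone of this cluster reached the expression limit. Mmp1b and Mmp20 were at 0 in all mice, and Mmp1b has a closely related neighbour, Mmp1a, that is annotated as a polymorphic pseudogene and was therefore not a member. The highest means among the 18 members below the limit belonged to Mmp12 (2.79) and Mmp16 (2.77), and the lowest means of tested members to Adamts4 (3.42) and Mmp17 (3.91).

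Promoter windows of 300 bases (250 before to 50 after the start, GRCm38.p6, RefSeq) were found for 35 of the 50 members, among them all 9 of the cluster. The motif TGANTCA, searched on both strands, was found in at least 1 window of 7 of the 9 cluster members and of none of the other 26 matched members, while 7.81% of the 32851 windows of all genes held it. TATAAA, also on either strand, was found for 8 of the 9 and for 3 of the 26 (13.62% of all windows), and GGGCGG for 0 of the 9 and 22 of the 26 (35.66% of all windows). The 100 bases before the start of the 7 cluster members with TGANTCA are shown 5′ to 3′ on the strand of the gene, with TGANTCA and TATAAA in capitals, because Mmp3, the member above the limit, can be compared here with neighbours below it. The positions are chr9:7272414-7272513 for Mmp13, chr9:7347274-7347373 for the Mmp12 start that has the motif, chr9:7388027-7388126 for Mmp1b on the reverse strand, chr9:7445722-7445821 for Mmp3, chr9:7502242-7502341 for Mmp10, chr9:7628131-7628230 for Mmp20 and chr9:7691990-7692089 for Mmp7.
Mmp13: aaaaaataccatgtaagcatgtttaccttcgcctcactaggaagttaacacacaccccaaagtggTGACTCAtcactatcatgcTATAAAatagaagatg
Mmp12: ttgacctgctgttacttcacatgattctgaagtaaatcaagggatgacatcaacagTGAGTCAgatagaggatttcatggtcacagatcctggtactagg
Mmp1b: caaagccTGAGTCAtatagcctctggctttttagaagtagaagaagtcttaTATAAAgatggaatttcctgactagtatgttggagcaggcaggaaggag
Mmp3: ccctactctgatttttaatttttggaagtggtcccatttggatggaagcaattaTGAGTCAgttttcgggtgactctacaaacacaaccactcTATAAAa
Mmp10: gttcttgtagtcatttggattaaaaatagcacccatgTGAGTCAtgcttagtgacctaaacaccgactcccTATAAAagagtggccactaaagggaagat
Mmp20: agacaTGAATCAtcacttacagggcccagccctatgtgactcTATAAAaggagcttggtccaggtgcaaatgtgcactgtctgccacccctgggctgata
Mmp7: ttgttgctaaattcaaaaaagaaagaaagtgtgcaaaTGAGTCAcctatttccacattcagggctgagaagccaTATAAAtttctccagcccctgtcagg
The motif starts between 95 and 35 bases before the annotated start, and in all of these windows except that of Mmp12 a TATAAA follows it upstream of the start. A match is a description of the letters, and Mmp3 and its neighbours below the limit shared it.

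Mmp3 (ENSMUSG00000043613, chromosome 9, 7445822 to 7455975), which encodes stromelysin 1, an enzyme that cleaves proteoglycans, laminin and fibronectin and activates other pro-MMPs, was higher in knock-out muscle. It had 5.67, 5.35, 4.57, 5.36 and 5.03 in knock-out mice and 4.52, 4.37, 4.83, 4.46 and 4.63 in wild-type mice. Knock-out mouse 3 lay at the level of the wild-type mice, and the other 4 knock-out mice lay above all of them. Mean Mmp3 was 5.20 ± 0.42 (SD, n = 5) in knock-out against 4.56 ± 0.18 (SD, n = 5) in wild-type mice. The log2 difference was 0.63 (SE 0.18, limma adjusted p = 0.0333), and the call was lost without any one of knock-out mice 1, 2, 4 and 5 and of wild-type mice 1, 2 and 4 (adjusted p between 0.0515 and 0.0847). The other tested stromelysin, Mmp11, had a log2 difference of 0.34 (limma adjusted p = 0.0916), with 4 of 5 knock-out values above all wild-type values. Mmp11 passed without wild-type mouse 4 (0.40, adjusted p = 0.0457).

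Mmp28 (ENSMUSG00000020682, chromosome 11, 83440768 to 83463071), the gene of epilysin, was lower in knock-out muscle at the limit of the test. The values were 4.97, 4.01, 4.73, 4.86 and 4.82 in knock-out mice and 4.91, 5.14, 5.79, 5.33 and 5.45 in wild-type mice. Knock-out mouse 2 was far below the rest, and knock-out mouse 1 lay above the lowest wild-type mouse. With means of 4.68 ± 0.38 (SD, n = 5) and 5.32 ± 0.33 (SD, n = 5), Mmp28 differed by -0.64 (SE 0.20, limma adjusted p = 0.0457). The call was kept without knock-out mouse 1 or wild-type mouse 1 and lost without any one of the other 8 mice (adjusted p between 0.0569 and 0.0957), among them wild-type mouse 3 (-0.53, adjusted p = 0.0726) and knock-out mouse 2 (-0.48, adjusted p = 0.0957). With sample weights the difference was -0.36 (adjusted p = 0.0795). Of its exon bases, 12.0% are shared with 1700020L24Rik on the opposite strand. Mmp19 and Mmp23 had log2 differences of 0.06 and -0.003 (limma adjusted p = 0.8 and 0.992), which ranged from -0.01 to 0.13 and from -0.10 to 0.07 with 1 mouse left out (Mmp19 was -0.01 without wild-type mouse 3), and 22.3% of the exon bases of Mmp19 are shared with Tmem198b on the opposite strand.

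None of the 13 tested ADAMTS genes passed in limma, and their median log2 difference was 0.08. At an unadjusted p under 0.05 (limma) were 3 of the 13, compared with 3948 of all 14289 tested genes. All 7 proteases of the group that cleaves aggrecan and versican were expressed above the limit, with log2 differences between -0.05 and 0.43. The largest belonged to Adamts8, with 6.12, 6.11, 5.92, 5.78 and 5.60 in knock-out and 5.43, 5.54, 5.53, 4.89 and 5.99 in wild-type mice (log2 difference 0.43, limma adjusted p = 0.139). Wild-type mouse 5 reached the level of the knock-out mice and wild-type mouse 4 was the lowest, and the difference was 0.56 without wild-type mouse 5 (adjusted p = 0.0416), 0.28 without wild-type mouse 4 (adjusted p = 0.247) and 0.26 with sample weights (adjusted p = 0.152). Reads of 10.6% of its exon bases could also belong to the antisense gene Gm29724.

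Adamts20 had 7.69, 7.33, 6.88, 7.09 and 6.99 in knock-out and 6.64, 6.76, 6.57, 6.97 and 6.95 in wild-type mice (log2 difference 0.42, limma adjusted p = 0.0925). Knock-out mouse 3 was the only one below a wild-type mouse. Adamts1 and Adamts5, neighbours on chromosome 16 that are 53.1 kb apart, were the most abundant ADAMTS genes and had log2 differences of 0.08 (95% confidence interval -0.36 to 0.52) and 0.05 (-0.21 to 0.31). Without wild-type mouse 3 the difference of Adamts1 was -0.12, so its direction turned. Adamts9, Adamts15 and Adamts4 had -0.05, 0.10 and -0.02, with ranges of -0.14 to 0.13, 0.01 to 0.20 and -0.13 to 0.04 when 1 mouse was left out.

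Of the enzymes that remove the N-terminal propeptide of procollagens, Adamts14 had 5.36, 5.48, 4.95, 5.31 and 5.21 in knock-out and 5.05, 5.04, 4.55, 4.85 and 4.79 in wild-type mice. Knock-out mouse 3 lay within the wild-type range, and the other 4 knock-out mice lay above it. The log2 difference was 0.41 (SE 0.13, limma adjusted p = 0.0607), and it was 0.49 without knock-out mouse 3 (adjusted p = 0.0328). Adamts2 had the opposite sign (-0.21, limma adjusted p = 0.332), and Adamts3 lay below the limit. The other tested ADAMTS genes were Adamts6 (0.24), Adamts7 (0.05), Adamts10 (0.21) and Adamts12 (-0.13). Without wild-type mouse 3, Adamts6 had 0.02 and Adamts10, for which this mouse was the lowest of all, had -0.08. Adamts7 turned to -0.03 without knock-out mouse 1 and to -0.06 without knock-out mouse 5, so that no direction can be given for these 3 genes.

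ADAMTSL proteins have the domains that bind the matrix but no protease, and several of them are associated with fibrillin microfibrils. All 5 genes were tested and Adamtsl5 passed. Adamtsl5 (ENSMUSG00000043822, chromosome 10, 80339110 to 80348412) had 10.82, 10.95, 10.68, 10.89 and 10.94 in knock-out mice and 10.02, 10.36, 10.75, 10.40 and 10.09 in wild-type mice. The knock-out mice were close together, and wild-type mouse 3 alone overlapped with them. Mean Adamtsl5 was 10.86 ± 0.11 (SD, n = 5) in knock-out against 10.33 ± 0.29 (SD, n = 5) in wild-type mice. The log2 difference was 0.53 (SE 0.13, limma adjusted p = 0.0137), and without wild-type mouse 3 it was 0.64 (adjusted p = 3.99e-04). The call was kept with each mouse left out in turn. Adamtsl4 had a log2 difference of 0.41 (limma adjusted p = 0.083), which passed without wild-type mouse 4 (0.55, adjusted p = 0.00362), and Adamtsl1, Adamtsl2 and Adamtsl3 had -0.11, 0.20 and 0.13. Adamtsl1 turned to 0.02 without wild-type mouse 5, Adamtsl2 had 0.07 without knock-out mouse 1, and Adamtsl3 had 0.02 without wild-type mouse 3.

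The mice of each genotype did not share the same rank among members. Knock-out mouse 3 had the lowest knock-out value for 20 of the 32 tested members (62.5%), compared with 22.1% of all tested genes, and knock-out mice 1 and 2 had the highest for 12 and 11. This was not particular to the members. The same mouse was lowest of the knock-out mice for all tested substrate genes listed below except Comp, Thbs1 and Vwf. Examples are Col1a1 (10.13, others 10.65 to 11.08) and Fn1 (10.31, others 10.53 to 10.82). Wild-type mouse 3 was lowest for 12 (37.5%) and highest for 7 (21.9%) of the members, compared with 32.5% and 34.2% of all tested genes. The SD of the tested members had a median of 0.20 in knock-out and 0.28 in wild-type mice, and 0.22 in wild-type mice without mouse 3. Without knock-out mouse 3, 5 members were higher and 1 lower (limma), or 18.8% against 10.7% of all genes. Without wild-type mouse 3, 4 were higher and 1 lower, or 15.6% against 17.4%.

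Among genes that act together with these proteases, 9 activators were listed, of which 8 were tested, with 1 higher and 2 lower in knock-out muscle (median log2 difference, 0.02). The changed genes all encode proprotein convertases, which cut the propeptides of membrane-type MMPs and ADAMTS enzymes. Pcsk5 rose by 0.73 (adjusted p = 0.00177), while Pcsk6 fell by 0.59 (adjusted p = 0.00751) and Furin fell by 0.37 (adjusted p = 0.0184, all limma). None of them overlapped between the genotypes, and neither did Bsg, which did not pass the test (-0.50, limma adjusted p = 0.131). For this list and those below, the shares over all tested genes were 13.7% passing and 14.4% without overlap. At an unadjusted p under 0.05 (limma) were 3948 of the 14289 tested genes. The genes of the plasminogen activators Plat and Plau and of the urokinase receptor Plaur had log2 differences of 0.09, 0.03 and 0.13, and Plg lay below the limit.

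Of 9 genes for other inhibitors and for clearance, 7 were tested, with 2 higher and 0 lower in limma (3 of the 7 at an unadjusted p under 0.05) and a median log2 difference of 0.07. Spock2, which encodes the proteoglycan testican 2, was listed here with its family, and whether it acts as an inhibitor was not tested. It ranged from 9.62 to 9.99 in knock-out and from 8.01 to 8.43 in wild-type mice. The log2 difference was 1.56 (SE 0.11, limma adjusted p = 9.6e-07). Reck, a membrane-anchored MMP inhibitor, and the clearance receptor gene Lrp1 had log2 differences of 0.07 each.

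Of 23 substrate genes, 22 were tested, with 6 higher and 1 lower and a median log2 difference of 0.15. Tnc, the gene of tenascin C, rose by 1.01 (adjusted p = 0.00431) and Col1a2 by 0.64 (adjusted p = 0.00795), and Vwf, the von Willebrand factor gene, fell by 0.62 (adjusted p = 0.00619, all limma). The collagen IV genes Col4a1 and Col4a2 had log2 differences of -0.13 and -0.10. Of 15 other metalloproteinases, mainly ADAMs, 8 were tested, with 0 higher and 1 lower in limma (4 of the 8 at an unadjusted p under 0.05) and a median of 0.12. Adam15 fell by 0.44 (limma adjusted p = 0.0297), and Adam10 had a log2 difference of 0.42 (limma adjusted p = 0.0898).

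**Figure D4:**
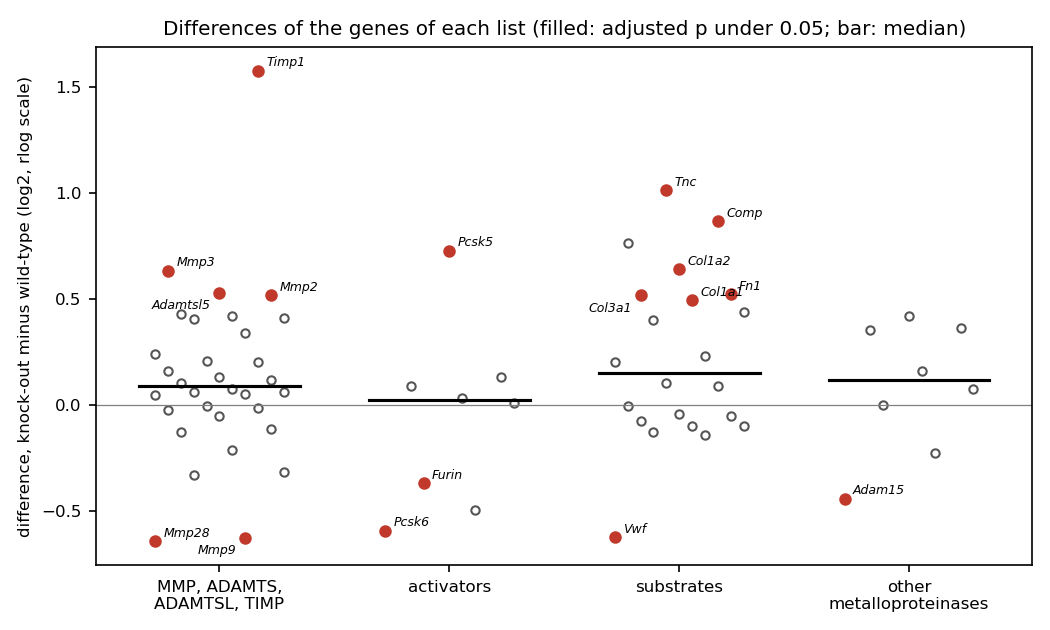
Log2 difference between desmin knock-out and wild-type muscle (y axis, rlog scale) for the tested genes of the protease and inhibitor families and of the lists of activators, substrates and other metalloproteinases (x axis), with filled and named points for an adjusted p under 0.05 and a bar at the median. Timp1 at 1.58 and Tnc at 1.01 are the highest points, while the medians of the 4 columns lie between 0.02 and 0.15.

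Some markers of other cells differed between the genotypes too, where 13.7% of all tested genes passed the test. Of 8 fibroblast markers, 3 were higher and 1 lower in knock-out muscle, of which Col1a1 and Col3a1 are also among the substrates, and their summed level ranged from 13.82 to 14.41 in knock-out and from 13.51 to 14.37 in wild-type mice. Lum rose by 0.99 and Ly6a fell by 0.40, and Pdgfra had a log2 difference of 0.08. Of 6 tendon markers, 3 were higher (Tnmd 1.51, Thbs4 0.96 and Scx 0.77), while Mkx (0.46), Fmod (0.40) and Kera (-0.03) did not pass in limma. The summed level of the 6 was 12.92 to 13.44 against 11.86 to 12.90. This sum is mostly Thbs4 (12.52 to 13.04 against 11.44 to 12.49) and is therefore no separate measure of these cells. Of 6 endothelial markers, 5 were lower, among them Flt1 (-0.59), and the summed level was 11.94 to 12.36 against 12.44 to 12.77. Satellite cell and regenerating fiber markers had 4 of 7 higher, namely Myh3 (2.25), Mymk (1.93), Myog (1.23) and Myh8 (0.85), and 1 lower, Myod1 (-0.47). The satellite cell markers Pax7 and Myf5 had log2 differences of 0.01 and 0.28 and did not pass in limma. The summed level of the 7 was 10.95 to 11.61 against 10.28 to 10.67. Smooth muscle and pericyte markers had 1 of 7 higher, Cspg4 (1.02), which is near the share of all tested genes. Muscle fiber markers had 1 of 8 higher and 2 lower. Of the 5 Schwann cell markers and the 4 adipocyte markers none passed in limma, nor at an unadjusted p under 0.05. Of the T cell list, Cd3e, Cd3g, Cd4 and Cd8a lay below the limit, and Ptprc, a marker of all leukocytes, had a log2 difference of 0.10 (limma adjusted p = 0.795). The part of these cells in the results for Timp1, Mmp2, Mmp3 and Adamtsl5 was not tested.

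**Figure D5:**
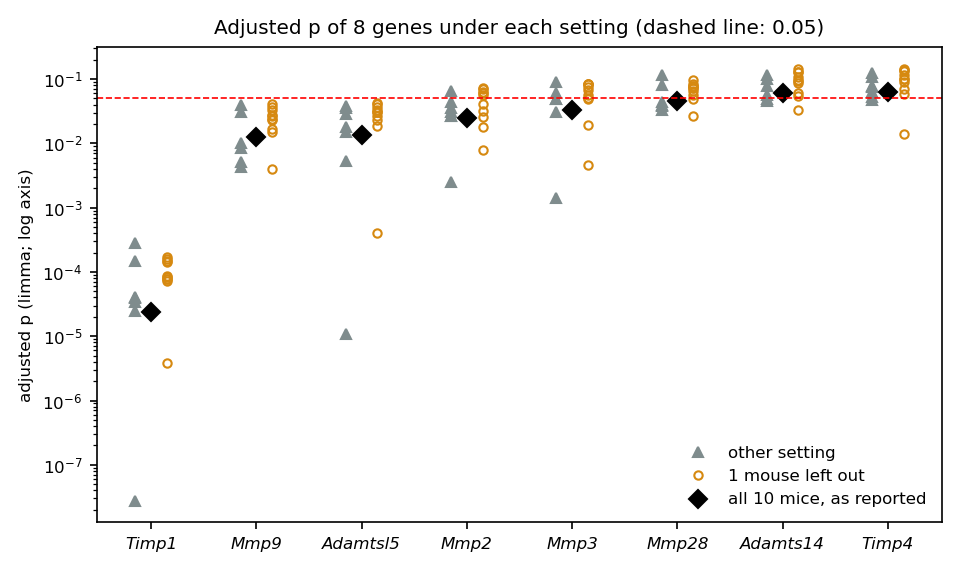
Adjusted p from limma (y axis, log axis) of the 8 members with the smallest values (x axis), with all 10 mice (diamonds), with 1 mouse left out (circles) and in the other settings (triangles), and a dashed line at 0.05. Timp1, Mmp9 and Adamtsl5 stay under the line throughout, and Mmp2, Mmp3 and Mmp28 cross it.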

How the data were processed

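Gastrocnemius RNA-seq of 5 mice per genotype was used, grouped by the labels. The table deposited by the authors holds rlog values (log2 scale, DESeq2), 1 column per mouse. The submitters' processing notes name cutadapt 2.5, STAR 2.5.4a, featureCounts of Subread 1.6.1 and GRCm38. Settings of the transformation are not given in the sources used here. Counts were not used, so depth and counting error are unknown.

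Symbols, biotypes, positions and exon lengths came from GENCODE M21 (GRCm38), with symbols for 54165 of 54232 genes. Genes whose mean reached log2(10) were fitted with limma 3.58.1 in R 4.3.3 (lmFit, eBayes, trended prior variance, two-sided test, p-values adjusted over 14289 genes by Benjamini-Hochberg). All columns of the table belong to a sample. The fit was tested on simulated data. The members, the 4 related lists, the 11 marker lists and the tests were chosen with earlier results of these data known. Values in every mouse are given for members with an adjusted p under 0.05, the Timp genes, Mmp2, Mmp9, Mmp14 and the 3 other members with the largest difference, and for each list up to 3 genes are named by adjusted p, besides others given as examples after their values were seen. A gene counted in the list of inhibitors and clearance is not reported here by name. Alternatives were no limit, a limit of log2(50), quantile normalization, median centring, sample weights (arrayWeights), a prior variance without trend, the replicate number as a block, each mouse left out and an adjusted p under 0.01.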

Additional observations from a re-analysis of the deposited data

Results flagged for a closer look

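In 66 groups of 5 mice (each genotype for the 32 tested members and for Des), 5 held a mouse far from the rest, and chance alone would give about 3.3, or 1 in 20. Wild-type mouse 3 was that mouse in 3 of the 5. Its value of Mmp14 was 8.72, where the other wild-type mice had 7.58 to 7.91. Its value of Adamts10 was 6.49, where the others had 7.76 to 8.14. Its value of Des was 17.74, where the others had 16.10 to 16.55. Knock-out mouse 2 had 4.01 for Mmp28, where the other knock-out mice had 4.73 to 4.97. Knock-out mouse 3 had 5.35 for Adamtsl3, where the others had 5.90 to 6.12.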

How the results depend on the processing

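Timp1 and Adamtsl5 kept their direction and an adjusted p under 0.05 in all 17 alternatives that were fitted anew, and Mmp9 in all 16 in which it reached the limit. Mmp2 did so in 11 of 17, Mmp3 in 7 of 16 and Mmp28 in 6 of 16. Against 4 members higher and 2 lower, sample weights gave 8 and 1 (28.1% of members, 29.5% of all genes), no limit on expression 3 and 1 (8.51% and 5.55%), a limit of log2(50) 3 and 0 (limma, 2 lower at an unadjusted p under 0.05, with Mmp9 and Mmp28 no longer tested), and an adjusted p under 0.01 gave 1, Timp1, and 0 (4 lower at an unadjusted p under 0.05). With 1 mouse left out the counts ranged from 2 to 5 higher and from 1 to 3 lower. In the 4 related lists 4 genes were lower, against 7 with sample weights, 2 with the replicate block and 2 to 6 with 1 mouse left out. In the marker lists 10 were lower, against 6 without a limit and 5 to 9 with 1 mouse left out. The 10 include S100a9, which reached the limit only through the wild-type mice and whose own test is not given. The replicate numbers are shared by both genotypes, but deviations of mice with the same number correlated between -0.22 and 0.07, so they share only a number. With the replicate block 3 members were higher and 2 lower, and Mmp3 had an adjusted p of 0.061. The causes of these changes were not tested. What depth limits cannot be given, since counts were not used.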

Other observations

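Mmp8, the collagenase of neutrophils, lay below the expression limit with a mean of 1.99 and was singled out after its values were seen. Its values were 2.43, 2.17, 2.01, 2.06 and 2.22 in knock-out mice and 1.88, 1.77, 1.80, 1.80 and 1.81 in wild-type mice, without overlap. In the fit without a limit it had a log2 difference of 0.36 (limma adjusted p = 0.034), and it was the only one of the 15 members below the limit with any value other than 0 that passed there, where 5.55% of all genes did. Mmp12, the macrophage elastase, and Mmp13 had log2 differences of 0.30 and 0.18 in that fit (limma adjusted p = 0.24 and 0.28). Adamts19, also below the limit, did not overlap between the genotypes either, and its values were lower in knock-out mice (-0.76 to -0.75 against -0.74 to -0.55). It did not pass in that fit (limma adjusted p = 0.188). The share of genes below the limit without overlap was not worked out. Differences at this level are strongly shrunken by rlog.

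The rlog value of Timp1 minus that of Mmp2 in the same mouse ranged from -3.02 to -2.58 in knock-out and from -4.15 to -3.33 in wild-type mice. For Timp2 minus Mmp2 the ranges were 0.73 to 1.38 and 1.24 to 1.62. Timp1 relative to Mmp2 was thus higher in every knock-out mouse than in any wild-type mouse. This follows from the rise of Timp1 by 1.58 against 0.52 for Mmp2 and is no separate result. Timp2 relative to Mmp2 had a lower mean in knock-out mice (1.11 against 1.51). Both are differences of RNA levels, and Mmp9, the other gelatinase, is not included. These values were not tested.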
